A study of Mus musculus with 18 samples.

Results

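The integrin, laminin and type IV collagen genes of mouse embryonic stem cells were followed across 18 microarrays. The members were every gene of the array whose RefSeq symbol is an Itga, Itgb, Lama, Lamb, Lamc or Col4a symbol: 42 genes, made up of 25 integrin subunits, 11 laminin chains and 6 type IV collagen chains. A gene was read where some group had all 3 of its arrays well above background for the probe, and 36 members passed (22 integrins, 11 laminins and 3 type IV collagens) among 16022 genes in all. Col4a3, Col4a4, Col4a6, Itga2, Itgb6 and Itgb8 did not pass and are not described further. Of the 36 members, 27 were well above background on all 3 arrays of each of the 6 groups. Col4a5, Itga1, Itga2b, Itga4, Itga11, Itgax, Itgb2, Lama2 and Lamc3 passed only in some groups, so a member of this kind had to look higher where it was read.

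Integrins are cell surface receptors, each made of an alpha and a beta subunit, that tie the extracellular matrix to the actin cytoskeleton. Laminins, trimers of an alpha, a beta and a gamma chain, and type IV collagen, a trimer of Col4a chains, are the 2 network-forming proteins of basement membranes, the thin matrix sheets under epithelia. Early mouse embryos build such sheets from laminin and type IV collagen, and embryonic stem cells bind laminin mainly through integrins that contain Itga6 and Itgb1.

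The cells were 129SV embryonic stem cells. By their genotype label all 18 samples were knocked out for Esrrb, which encodes a pluripotency transcription factor, and held Raf-ErT2, a fusion kinase that 4-hydroxytamoxifen (4OHT) switches on and that acts through Mek and ERK. The KO-labelled cells held an empty vector and the Rescue-labelled cells an Esrrb transgene. Each of these lines was titled 0h (untreated), 8h (4OHT for 8 h) or 8h2h (4OHT for 8 h, then a Mek inhibitor for 2 h), giving 6 groups of 3 arrays. All cells had been moved from serum, LIF and 2 uM Chir99021, a GSK3 inhibitor, to serum, LIF and 250 nM PD173074, an FGF receptor inhibitor, for 24 h before treatment with 250 nM 4OHT. The labels do not say how many clones stand behind a line.

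Esrrb signal did not follow the line labels: in 9 of 9 same-slide pairs the array labelled KO read above the one labelled Rescue. On the log2 scale used throughout (an array's 75th percentile is 0), Esrrb stood at 4.09, 3.50 and 3.65 on KO-labelled arrays, against 2.15, 1.75 and 1.84 on Rescue-labelled arrays titled 8h. The difference was 0.63 ± 0.26 (adjusted p = 0.118) at 0h, 1.84 ± 0.26 (adjusted p = 2.03e-04) at 8h and 2.23 ± 0.26 (adjusted p = 5.00e-05) at 8h2h. The sources used here do not say whether the deletion removes the probe's target, so the probe does not settle the labels, and every direction between the lines is that of arrays labelled KO over arrays labelled Rescue. The title and the source name also disagreed about the Mek inhibitor on the 12 arrays titled 8h or 8h2h, each giving it to the other set. Titles were used for the groups, and the ERK feedback gene Dusp6 had 0.06, 0.36 and 0.10 on the KO-labelled arrays titled 8h2h, against 4.64, 4.56 and 4.56 on those titled 8h.

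The share of probes read above background was 53.6% to 63.8% on Rescue-labelled arrays. It was 46.6% to 56.4% on KO-labelled arrays, leaving out the 8h2h array of replicate b. Fewer probes in general were thus read on most KO-labelled arrays, which limits any statement that a gene was not read there. On the KO-labelled 8h2h array of replicate b the share was 88.6%. Its negative control spots had a median signal of 42, where the other arrays had 24.5 to 28, and dim members read high on it: Itga2b had -7.06, -0.60 and -6.21 in that group. Each replicate letter was 1 slide that carried the 6 groups in a fixed layout, so a group's position on the slide and the group itself cannot be told apart. Nothing in the labels says that replicates were separate cultures, and p-values then measure the spread between these arrays. In bulk RNA, fewer cells that express a gene and less of its RNA per cell cannot be told apart. Each of the 8 embryonic stem cell markers was well above background in all 6 groups, on at least 1 array of each, and their levels moved with line and title, as given beside the results.

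Promoter sequence was at hand for 23 of the 36 members, as RefSeq windows on GRCm38.p6 from 250 bases before to 50 bases after a gene's start. The windows of the members the results turn on most are shown first. Col4a1 (chr8:11312777-11313076, minus strand) and Col4a2 (chr8:11312555-11312854, plus strand) lie head to head, with starts 21 bases apart and 78 bases shared between the windows, and both differed between the lines at all 3 titles. Itgax (chr7:128129300-128129599, plus strand) was not well above background on any array titled 0h and was read on every array titled 8h. Capitals mark the GC box GGGCGG, read as CCGCCC on the other strand, in the collagen windows, and the AP-1 motif TGANTCA in the Itgax window. AP-1 factors include Fos and Jun proteins.
Col4a1: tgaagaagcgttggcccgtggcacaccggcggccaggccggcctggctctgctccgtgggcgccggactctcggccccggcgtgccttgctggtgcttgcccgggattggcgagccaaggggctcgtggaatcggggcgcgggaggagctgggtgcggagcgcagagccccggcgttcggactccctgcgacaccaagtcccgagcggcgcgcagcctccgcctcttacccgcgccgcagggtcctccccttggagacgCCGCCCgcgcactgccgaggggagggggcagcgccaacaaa
Col4a2: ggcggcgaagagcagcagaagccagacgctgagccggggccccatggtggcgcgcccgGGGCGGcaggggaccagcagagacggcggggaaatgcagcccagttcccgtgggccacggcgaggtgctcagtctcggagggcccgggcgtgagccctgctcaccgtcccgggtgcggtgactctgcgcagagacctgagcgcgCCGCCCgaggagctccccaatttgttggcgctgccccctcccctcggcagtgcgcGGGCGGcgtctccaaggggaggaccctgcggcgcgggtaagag
Itgax: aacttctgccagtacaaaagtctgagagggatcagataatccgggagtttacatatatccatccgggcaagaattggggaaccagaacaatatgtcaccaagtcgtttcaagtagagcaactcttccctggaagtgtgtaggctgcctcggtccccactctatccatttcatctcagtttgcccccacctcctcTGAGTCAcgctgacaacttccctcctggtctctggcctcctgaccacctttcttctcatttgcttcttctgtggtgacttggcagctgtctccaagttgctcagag
The Col4a1 window held 1 GC box and the Col4a2 window 3, with neither an AP-1 motif nor a CArG box, the serum response factor motif, in either. The Col4a1 box and the last Col4a2 box are the same bases, read on opposite strands in the stretch that the windows share. The Itgax window held 1 AP-1 motif, 56 bases before the start, and no GC box. Searched on both strands, TGANTCA stood in 7.81% of 32851 windows, the CArG box in 1.63% and GGGCGG in 35.7%. By gene, the AP-1 motif was in 8.97% of 27025 genes with a window and in 3 of the 23 members (Itga3, Itga9 and Itgax). The CArG box was in 1.81% of genes and in 1 member (Lama2), and the GC box in 38.2% of genes and in 13 members. A match is a run of letters and not a bound site.

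Comparing the KO-labelled with the Rescue-labelled arrays asks which members differ with the Esrrb label. Type IV collagen chains and several matrix-binding integrins had less signal on KO-labelled arrays, while Itga9, the lymphocyte integrin subunits Itgae, Itgal and Itgb7, and the embryonic laminin chain Lama1 had more. Of the 36 members, 5 were called higher and 9 lower at 0h (adjusted p below 0.05 over all 16022 genes), where 7.09% of all genes were called higher and 11.3% lower. Col4a5 and Itga1, counted among those lower, passed the filter only through Rescue-labelled groups. At 8h the counts were 5 higher and 12 lower, against 9.16% and 12.4% of all genes. At 8h2h they were 5 higher and 9 lower, against 9.55% and 12.3%. The same 5 members were higher at all 3 titles, and 4 were lower at all 3 (Col4a1, Col4a2, Itga3 and Itga7). The median member difference was -0.35 at 0h, -0.59 at 8h and -0.32 at 8h2h, beside -0.02, -0.01 and 0.01 over all genes.

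With the slide as a block the members called were 15, 17 and 17 at 0h, 8h and 8h2h. Without the high-background array they were 17, 22 and 21, with Itgb2, Lama2 and Lamc3 among those added at 8h. With no scaling between arrays they were 4, 7 and 7, and the median over all genes then moved to 0.12, 0.11 and 0.21. Shares of all genes called under these settings are not given, so the counts show nothing particular to the members.

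**Figure D1:**
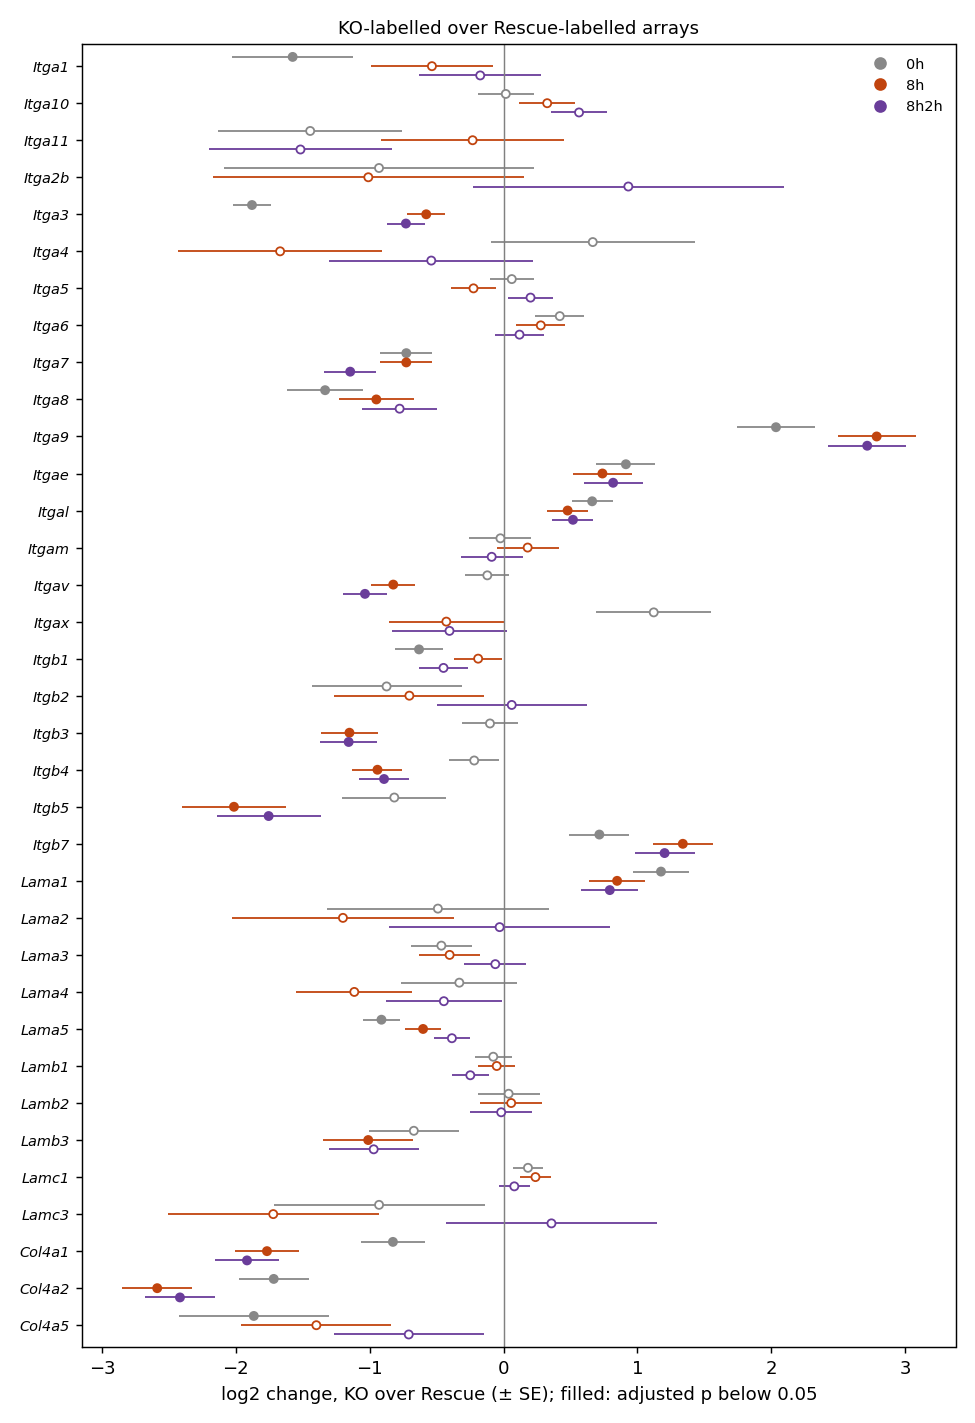
Log2 difference of KO-labelled over Rescue-labelled arrays for 35 of the 36 members at titles 0h, 8h and 8h2h; points are model estimates, bars 1 SE, and filled points have an adjusted p below 0.05. Col4a1 and Col4a2 lie left of 0 and Itga9 right of 0 at all 3 titles; Col4a5 and Itga1 at 0h rest on KO-labelled arrays that were not well above background.

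Col4a1 and Col4a2 encode the chains of the type IV collagen trimer found in almost every basement membrane. At 0h Col4a2 had -0.87, -0.67 and -0.88 on KO-labelled arrays, against 0.82, 1.20 and 0.72 on Rescue-labelled arrays. At 8h, Col4a2 had -1.20, -0.90 and -1.22 on KO-labelled arrays, against 1.23, 1.54 and 1.69 on Rescue-labelled arrays. At 8h2h, Col4a2 had -1.25, -0.05 and -1.13 on KO-labelled arrays, against 1.31, 1.65 and 1.86 on Rescue-labelled arrays. The lines did not overlap at any title. Col4a2 was 3.29-fold lower at 0h, 6.01-fold lower at 8h and 5.34-fold lower at 8h2h, with log2 differences of -1.72 ± 0.26 (adjusted p = 4.20e-04), -2.59 ± 0.26 (adjusted p = 1.24e-05) and -2.42 ± 0.26 (adjusted p = 2.66e-05). Its head-to-head neighbour Col4a1 had 0.65, 0.37 and 1.31 on KO-labelled arrays, against 1.20, 1.74 and 1.88 on Rescue-labelled arrays at 0h, where the lines overlapped. At 8h, Col4a1 had 0.39, 0.16 and 0.37 on KO-labelled arrays, against 1.81, 2.22 and 2.19 on Rescue-labelled arrays. At 8h2h, Col4a1 had 0.28, -0.03 and 0.54 on KO-labelled arrays, against 1.92, 2.28 and 2.34 on Rescue-labelled arrays. Those titles showed no overlap. The Col4a1 differences were -0.83 ± 0.24 (adjusted p = 0.0271), -1.77 ± 0.24 (adjusted p = 1.32e-04) and -1.92 ± 0.24 (adjusted p = 7.71e-05), the first of them lost under 7 of the 29 settings tried.

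Col4a5, a chain of the collagen network of specialised basement membranes such as the kidney's, was not well above background on any KO-labelled array at 0h (-6.77, -6.21 and -6.50) and was on all 3 Rescue-labelled arrays (-4.48, -5.40 and -4.00). It passed the filter only through Rescue-labelled groups, so its call as lower at 0h was not an independent test. Its floor leaves no fold to state. At 8h, Col4a5 had -6.60, -6.08 and -6.76 on KO-labelled arrays, against -5.09, -5.34 and -4.81 on Rescue-labelled arrays. At 8h2h, Col4a5 had -6.25, -3.67 and -6.48 on KO-labelled arrays, against -4.91, -4.82 and -4.54 on Rescue-labelled arrays. The KO-labelled 8h2h array of replicate b was the one KO-labelled array on which it was read.

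Itga3, Itga6 and Itga7 encode alpha subunits that bind laminin, each as a partner of Itgb1, and Itga6 also pairs with Itgb4. Itga3 had -0.28, -0.05 and -0.41 on KO-labelled arrays, against 1.44, 1.68 and 1.76 on Rescue-labelled arrays at 0h. At 8h, Itga3 had 2.81, 2.46 and 2.69 on KO-labelled arrays, against 3.21, 3.33 and 3.15 on Rescue-labelled arrays. At 8h2h, Itga3 had 2.34, 1.87 and 2.26 on KO-labelled arrays, against 2.83, 3.0 and 2.83 on Rescue-labelled arrays. Every KO-labelled array was below every Rescue-labelled array of the same title. Itga3 was 3.68-fold lower at 0h, with differences of -1.88 ± 0.14 (adjusted p = 2.43e-06) at 0h, -0.58 ± 0.14 (adjusted p = 0.00997) at 8h and -0.73 ± 0.14 (adjusted p = 0.00218) at 8h2h. Its second probe gave -1.15, -0.67 and -0.70.

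Itga7 had -1.41, -1.37 and -1.14 on KO-labelled arrays, against -0.52, -0.65 and -0.57 on Rescue-labelled arrays at 0h. At 8h, Itga7 had 0.93, 0.78 and 1.37 on KO-labelled arrays, against 1.76, 1.88 and 1.63 on Rescue-labelled arrays. At 8h2h, Itga7 had 0.15, -0.28 and 0.62 on KO-labelled arrays, against 1.33, 1.44 and 1.15 on Rescue-labelled arrays. These groups did not overlap at any title. The differences were -0.73 ± 0.20 (adjusted p = 0.0183), -0.73 ± 0.20 (adjusted p = 0.0157) and -1.15 ± 0.20 (adjusted p = 7.94e-04), though its second probe gave -0.06 at 0h. The second Itga7 probe was dimmer (mean level -3.50) and was well above background on 14 of the 18 arrays. For Itga6 no line difference was called at any title.

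Itgb1, the beta subunit shared by most matrix receptors, had 2.88, 2.98 and 2.81 on KO-labelled arrays, against 3.31, 3.25 and 4.01 on Rescue-labelled arrays at 0h, a difference of -0.63 ± 0.18 (adjusted p = 0.026). At 8h, Itgb1 had 4.15, 4.01 and 4.28 on KO-labelled arrays, against 4.22, 4.34 and 4.45 on Rescue-labelled arrays. At 8h2h, Itgb1 had 3.82, 3.32 and 3.77 on KO-labelled arrays, against 4.01, 4.05 and 4.19 on Rescue-labelled arrays. Neither of the later differences was called, and the call at 0h was lost under 6 of 29 settings. Itgb4, the hemidesmosome partner of Itga6, was lower on KO-labelled arrays, differing by -0.94 ± 0.19 (adjusted p = 0.00242) at 8h and -0.89 ± 0.19 (adjusted p = 0.00345) at 8h2h, and it was not called at 0h.

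The subunits Itga5, Itga8, Itgav, Itgb3 and Itgb5 belong to receptors for fibronectin, vitronectin, nephronectin and other proteins with an arginine-glycine-aspartate sequence. Itgb5, a partner of Itgav, had 1.5, 1.60 and 1.25 on KO-labelled arrays, against 2.90, 1.94 and 1.95 on Rescue-labelled arrays at 0h. At 8h, Itgb5 had 0.24, 0.56 and 0.06 on KO-labelled arrays, against 3.21, 1.97 and 1.72 on Rescue-labelled arrays. At 8h2h, Itgb5 had 0.49, 0.76 and 0.27 on KO-labelled arrays, against 3.03, 1.93 and 1.82 on Rescue-labelled arrays. Replicate a of the Rescue-labelled arrays stood above the other replicates of its line at each title. The lines did not overlap at any title, though the Itgb5 difference at 0h was not called. Itgb5 was 4.04-fold lower at 8h (-2.01 ± 0.39, adjusted p = 0.00197) and 3.37-fold lower at 8h2h (-1.75 ± 0.39, adjusted p = 0.00508).

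Itgav had 0.90, 0.76 and 1.03 on KO-labelled arrays, against 0.99, 1.08 and 0.99 on Rescue-labelled arrays at 0h. At 8h, Itgav had 0.45, 0.47 and 0.62 on KO-labelled arrays, against 1.00, 1.45 and 1.56 on Rescue-labelled arrays. At 8h2h, Itgav had 0.37, -0.04 and 0.41 on KO-labelled arrays, against 1.02, 1.32 and 1.52 on Rescue-labelled arrays. The lines overlapped at 0h and did not overlap at the later titles. In limma the Itgav differences were -0.82 ± 0.16 (adjusted p = 0.00252) at 8h and -1.03 ± 0.16 (adjusted p = 4.72e-04) at 8h2h. Its change at 8h over 0h was not called as different between the lines. Itgb3, the other main partner of Itgav, had -1.92, -2.28 and -1.69 on KO-labelled arrays, against -1.60, -1.92 and -2.07 on Rescue-labelled arrays at 0h. At 8h, Itgb3 had -1.49, -2.26 and -1.75 on KO-labelled arrays, against -0.57, -0.69 and -0.80 on Rescue-labelled arrays. At 8h2h, Itgb3 had -1.81, -2.37 and -1.82 on KO-labelled arrays, against -0.73, -0.97 and -0.84 on Rescue-labelled arrays. Its differences were -1.15 ± 0.21 (adjusted p = 0.00137) at 8h and -1.16 ± 0.21 (adjusted p = 0.00134) at 8h2h. The second Itgb3 probe gave -1.78 at 8h but 0.22 at 8h2h. That probe was well above background on only 7 of the 18 arrays (mean level -5.94), so its values near the floor cannot settle the last title.

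Itga8, the nephronectin receptor subunit, had -2.31, -2.12 and -3.25 on KO-labelled arrays, against -1.24, -1.27 and -1.18 on Rescue-labelled arrays at 0h. At 8h, Itga8 had 0.55, 0.29 and -0.31 on KO-labelled arrays, against 1.31, 1.01 and 1.07 on Rescue-labelled arrays. At 8h2h, Itga8 had 0.65, -0.02 and 0.04 on KO-labelled arrays, against 1.29, 0.78 and 0.94 on Rescue-labelled arrays. All KO-labelled arrays were below all Rescue-labelled arrays at each title. The difference was called at 0h (-1.33 ± 0.28, adjusted p = 0.00441) and 8h (-0.95 ± 0.28, adjusted p = 0.0265). Itga5, the fibronectin receptor subunit, was not called between the lines.

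Itga1, a collagen-binding subunit, was not well above background on any KO-labelled array at 0h (-6.79, -6.23 and -6.57) and was on all 3 Rescue-labelled arrays (-5.19, -5.07 and -4.61), so no fold is given. Itga1 too passed the filter only through Rescue-labelled groups, and its call as lower at 0h was not an independent test. At 8h, Itga1 had -4.23, -4.02 and -4.82 on KO-labelled arrays, against -3.40, -4.11 and -3.96 on Rescue-labelled arrays. At 8h2h, Itga1 had -4.80, -2.50 and -4.56 on KO-labelled arrays, against -3.59, -3.82 and -3.94 on Rescue-labelled arrays. The KO-labelled arrays were read on 2 of 3 arrays at 8h and on 1 of 3 at 8h2h. The other collagen-binding subunits Itga10 and Itga11 were called in none of the 9 comparisons.

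Itga9, an Itgb1 partner that binds tenascin and osteopontin, had the largest difference of any member in favour of the KO label. At 0h, Itga9 had 0.33, -0.57 and -0.43 on KO-labelled arrays, against -2.38, -2.07 and -2.32 on Rescue-labelled arrays. At 8h, Itga9 had 0.05, -1.15 and -0.60 on KO-labelled arrays, against -3.34, -3.66 and -3.06 on Rescue-labelled arrays. At 8h2h, Itga9 had -0.28, -1.02 and -0.71 on KO-labelled arrays, against -3.43, -3.36 and -3.36 on Rescue-labelled arrays. No KO-labelled array fell as low as a Rescue-labelled array. Itga9 was 4.1-fold higher at 0h, 6.9-fold at 8h and 6.57-fold at 8h2h, with differences of 2.04 ± 0.29 (adjusted p = 2.52e-04), 2.79 ± 0.29 (adjusted p = 1.64e-05) and 2.72 ± 0.29 (adjusted p = 2.52e-05). The second probe gave 1.66, 2.11 and 2.41.

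Itgb7 is the beta subunit that pairs with Itgae to bind E-cadherin, and with Itga4 in lymphocyte homing. Itgb7 had 0.63, 0.54 and 0.84 on KO-labelled arrays, against 0.27, -0.27 and -0.15 on Rescue-labelled arrays at 0h. At 8h, Itgb7 had 1.18, 1.1 and 0.64 on KO-labelled arrays, against 0.04, -0.56 and -0.58 on Rescue-labelled arrays. At 8h2h, Itgb7 had 0.92, 0.78 and 0.61 on KO-labelled arrays, against 0.01, -0.60 and -0.71 on Rescue-labelled arrays. The lines did not overlap. Its differences were 0.72 ± 0.22 (adjusted p = 0.0388), 1.34 ± 0.22 (adjusted p = 6.95e-04) and 1.20 ± 0.22 (adjusted p = 0.00153), the first lost under 10 of 29 settings. Itgae was higher by 0.91 ± 0.22 (adjusted p = 0.00994), 0.74 ± 0.22 (adjusted p = 0.0266) and 0.82 ± 0.22 (adjusted p = 0.0157). Itgal, the alpha subunit of the lymphocyte receptor for ICAMs, was higher by 0.66 ± 0.15 (adjusted p = 0.00781), 0.48 ± 0.15 (adjusted p = 0.0377) and 0.52 ± 0.15 (adjusted p = 0.026). Under quantile normalization the 8h2h differences of Itgae and Itgal turned to -0.14 and -0.34, neither of them called. Itgb2, Itgam, Itga4 and Itga2b, further subunits of blood cell integrins, were called in none of the 9 comparisons.

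Among laminin chains, Lama1, the alpha chain of the first embryonic laminin, had 4.95, 4.48 and 4.86 on KO-labelled arrays, against 3.37, 3.68 and 3.71 on Rescue-labelled arrays at 0h. At 8h, Lama1 had 4.37, 4.22 and 4.72 on KO-labelled arrays, against 3.39, 3.72 and 3.65 on Rescue-labelled arrays. At 8h2h, Lama1 had 4.88, 4.08 and 4.87 on KO-labelled arrays, against 3.64, 3.90 and 3.90 on Rescue-labelled arrays. Each KO-labelled array was above each Rescue-labelled array of its title. Lama1 was 2.26-fold higher at 0h (1.18 ± 0.21, adjusted p = 0.00141), with smaller differences of 0.85 ± 0.21 (adjusted p = 0.0103) at 8h and 0.79 ± 0.21 (adjusted p = 0.0151) at 8h2h. Lama5, the alpha chain of a laminin on which embryonic stem cells self-renew, went the other way. It had 3.95, 4.28 and 3.98 on KO-labelled arrays, against 4.97, 4.99 and 4.99 on Rescue-labelled arrays at 0h. At 8h, Lama5 had 2.85, 3.27 and 2.80 on KO-labelled arrays, against 3.50, 3.60 and 3.62 on Rescue-labelled arrays. At 8h2h, Lama5 had 3.49, 3.23 and 3.31 on KO-labelled arrays, against 3.54, 3.83 and 3.82 on Rescue-labelled arrays. Its differences were -0.91 ± 0.14 (adjusted p = 3.36e-04) at 0h and -0.60 ± 0.14 (adjusted p = 0.00561) at 8h, and at 8h2h it was not called.

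Lama3 and Lamb3 encode chains of the laminin of epithelial anchoring sites. Lamb3 had -2.01, -2.00 and -1.64 on KO-labelled arrays, against -1.29, -1.37 and -0.99 on Rescue-labelled arrays at 0h. At 8h, Lamb3 had -3.64, -3.57 and -3.23 on KO-labelled arrays, against -2.55, -2.38 and -2.49 on Rescue-labelled arrays. At 8h2h, Lamb3 had -4.34, -2.44 and -3.81 on KO-labelled arrays, against -2.72, -2.37 and -2.59 on Rescue-labelled arrays. It was lower at 8h, differing by -1.01 ± 0.34 (adjusted p = 0.0446), a call lost under 17 of 29 settings, and Lama3 was not called between the lines. Lama2, Lama4, Lamb1, Lamb2, Lamc1 and Lamc3 were not called between the lines either.

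**Figure D2:**
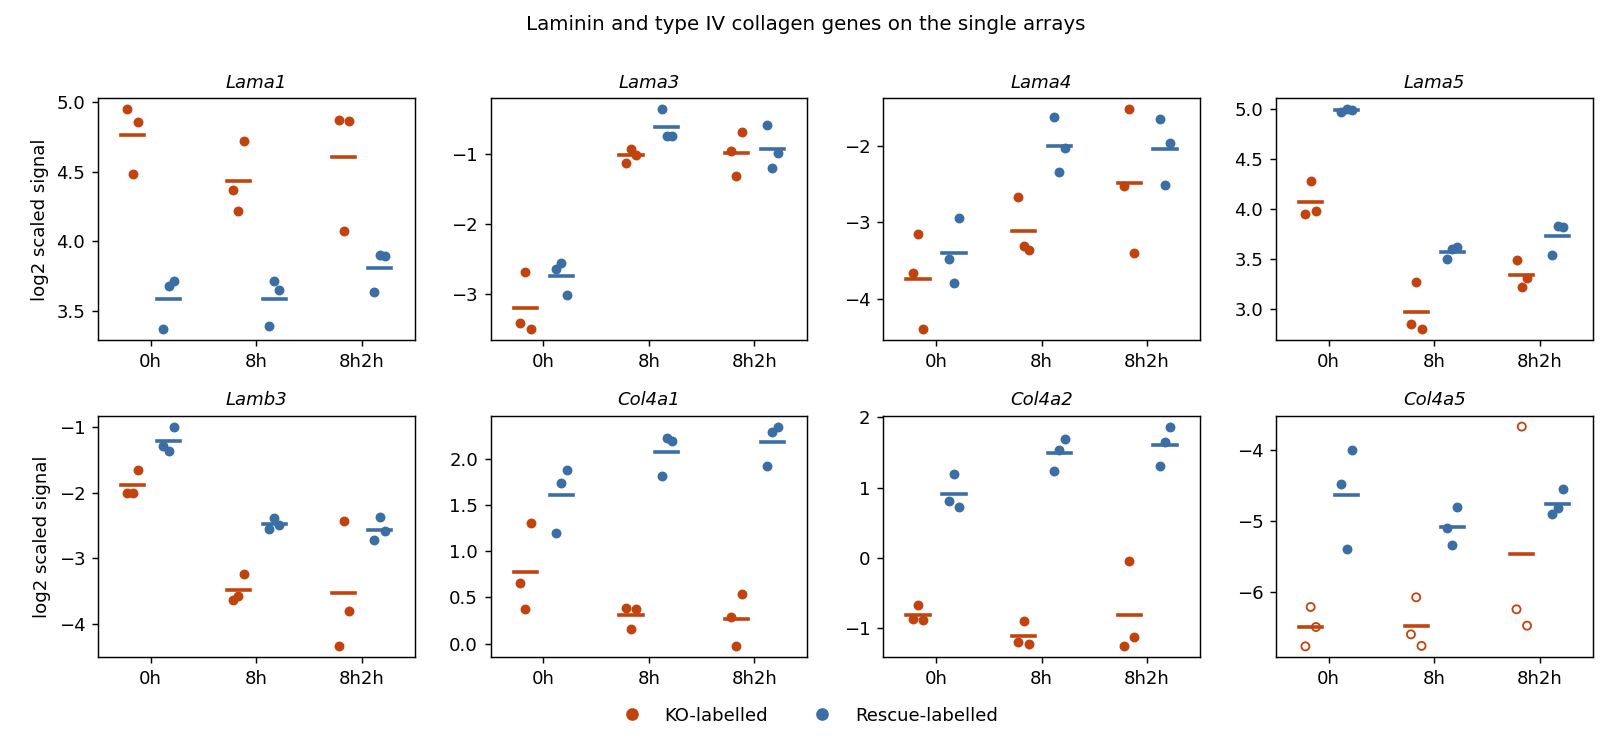
Log2 scaled signal (0 is the array's 75th percentile) of 8 laminin and type IV collagen genes on every array, by title, with KO-labelled arrays left of Rescue-labelled arrays; bars are means of 3 arrays, and open points mark a group not well above background on all 3 arrays. Col4a2 shows no overlap between the lines at any title, and Lama5 is highest at 0h in both lines.

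Partner lists, chosen with earlier results of these data known, are given by counts. The shares over all genes, for every partner list, were 7.09% higher and 11.3% lower at 0h. They were 9.16% and 12.4% at 8h, and 9.55% and 12.3% at 8h2h. In short lists a few genes make up such shares. Of 12 genes for collagen IV synthesis and crosslinking, 4 were higher and 2 lower at 0h, 1 higher and 5 lower at 8h, and 0 higher and 5 lower at 8h2h, with list medians of 0.18, 0.04 and -0.14. Serpinh1, the collagen chaperone, was lower, differing by -1.54 ± 0.17 (adjusted p = 3.91e-05), -1.78 ± 0.17 (adjusted p = 9.44e-06) and -1.61 ± 0.17 (adjusted p = 2.61e-05), and Pxdn, which crosslinks type IV collagen, was lower too, differing by -0.83 ± 0.19 (adjusted p = 0.00633), -0.89 ± 0.19 (adjusted p = 0.00341) and -0.91 ± 0.19 (adjusted p = 0.00297). Of 20 adhesion adaptors tested, 2 were higher and 6 lower at 0h, 3 and 7 at 8h, and 3 and 8 at 8h2h (medians -0.18, -0.16 and -0.10). Parva and Zyx, which link integrins to actin, were lower at 0h, differing by -2.25 ± 0.27 (adjusted p = 7.12e-05) and -1.96 ± 0.19 (adjusted p = 1.43e-05). Of 13 matrix proteases and inhibitors tested, 1 was higher and 8 lower at 0h, and 0 higher and 7 lower at both later titles (medians -0.78, -1.10 and -1.01).

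Of 13 other integrin ligands tested, 2 were higher and 3 lower at 0h, and 1 higher and 4 lower at both later titles (medians -0.11, -0.45 and -0.17). Thbs1, the thrombospondin bound by several integrins, was lower, differing by -3.74 ± 0.45 (adjusted p = 6.90e-05) at 0h, and Fn1, fibronectin, was higher by 0.69 ± 0.14 (adjusted p = 0.00306) at 8h. The 12 basement membrane partners gave 2 higher and 3 lower at 0h, 3 and 1 at 8h, and 1 and 2 at 8h2h (medians -0.15, -0.18 and -0.17). Nid1, a nidogen that bridges laminin and type IV collagen, was higher by 1.47 ± 0.30 (adjusted p = 0.00345) at 0h, where Col4a1 and Col4a2 were lower.

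Markers of other cell types also differed between the lines. Beside them, 7.09% of all genes were higher and 11.3% lower at 0h, 9.16% and 12.4% at 8h, and 9.55% and 12.3% at 8h2h. Of 10 trophoblast markers tested, 0 were higher and 9 lower at 0h, and 1 higher and 8 lower at 8h and at 8h2h. Their summed level, in multiples of the array's 75th percentile, was 16.3 to 25.3 on KO-labelled arrays at 0h, against 176 to 201 on Rescue-labelled arrays. At 8h it was 45.8 to 59.5 on KO-labelled arrays, against 270.0 to 282.7 on Rescue-labelled arrays, and at 8h2h 43.4 to 47.5 on KO-labelled arrays, against 254.7 to 284.6 on Rescue-labelled arrays. Cdx2, Hand1 and Plac1 were not well above background on any KO-labelled array at 0h. Of 12 primitive and parietal endoderm markers, a cell type rich in Col4a1, Col4a2 and Lama1, 0 were higher and 6 lower at 0h, 1 and 3 at 8h, and 3 and 4 at 8h2h. The median differences of these markers were -1.22, -0.83 and -0.49, while a sum weighs the brightest genes most. Their summed level was 133 to 221 on KO-labelled arrays at 0h, against 152 to 179 on Rescue-labelled arrays. At 8h it was 146 to 188 on KO-labelled arrays, against 187 to 192 on Rescue-labelled arrays, and at 8h2h, where the lines did not overlap, 119 to 164 on KO-labelled arrays, against 165 to 193 on Rescue-labelled arrays. Of the 5 leukocyte and platelet markers tested, 2 were higher and 0 lower at 0h, 1 and 0 at 8h, and 1 and 1 at 8h2h. Laptm5, a lysosomal membrane protein of blood cells, was higher by 1.65 ± 0.29 (adjusted p = 0.0011), 1.41 ± 0.29 (adjusted p = 0.00285) and 1.22 ± 0.29 (adjusted p = 0.00745), beside Itgae, Itgal and Itgb7. The other call at 0h, Ptprc, was not well above background on any array titled 0h. Read on all arrays of the later titles, Ptprc went the other way from Laptm5. It was the lower call at 8h2h, differing by -0.99 ± 0.33 (adjusted p = 0.0484 in limma). At 8h it was not called (-0.86 ± 0.33, adjusted p = 0.0837 in limma). Summed over the 5, the level was 7.00 to 10.4 on KO-labelled arrays at 0h, against 5.45 to 6.77 on Rescue-labelled arrays. Of the 8 embryonic stem cell markers, 6 were higher and 0 lower at 0h, 4 and 0 at 8h, and 5 and 0 at 8h2h (medians 0.61, 0.39 and 0.65). Nanog, a pluripotency transcription factor, was higher by 1.51 ± 0.34 (adjusted p = 0.00669), 2.65 ± 0.34 (adjusted p = 8.93e-05) and 2.44 ± 0.34 (adjusted p = 1.84e-04). Summed over the 8, the level was 679 to 730 on KO-labelled arrays at 0h, against 582 to 711 on Rescue-labelled arrays. The part of these cell types in the collagen, integrin and laminin differences was not tested.

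The arrays titled 8h over those titled 0h ask how members move when Raf-ErT2 is switched on. In both lines the integrin genes Itga3, Itga7, Itga8, Itgax and Itgb1 and the laminin gene Lama3 rose, and the laminin genes Lama5, Lamb2 and Lamb3 fell. In KO-labelled cells 7 members were called higher and 4 lower, where 11.9% of all genes were higher and 13.5% lower. In Rescue-labelled cells 12 were higher and 5 lower, where 13% and 16.1% of all genes were. Itgax, counted among those higher in both lines, passed the filter only through groups titled 8h and 8h2h. No member was called in opposite directions in the lines. The median member change was -0.02 in KO-labelled and 0.35 in Rescue-labelled cells, beside -0.04 and -0.05 over all genes. With the slide as a block 12 and 18 members were called, without the high-background array 15 and 20, and with no scaling 9 and 13, the median over all genes then being 0.28 and 0.29. These counts also come without the shares of all genes under the same settings.

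**Figure D3:**
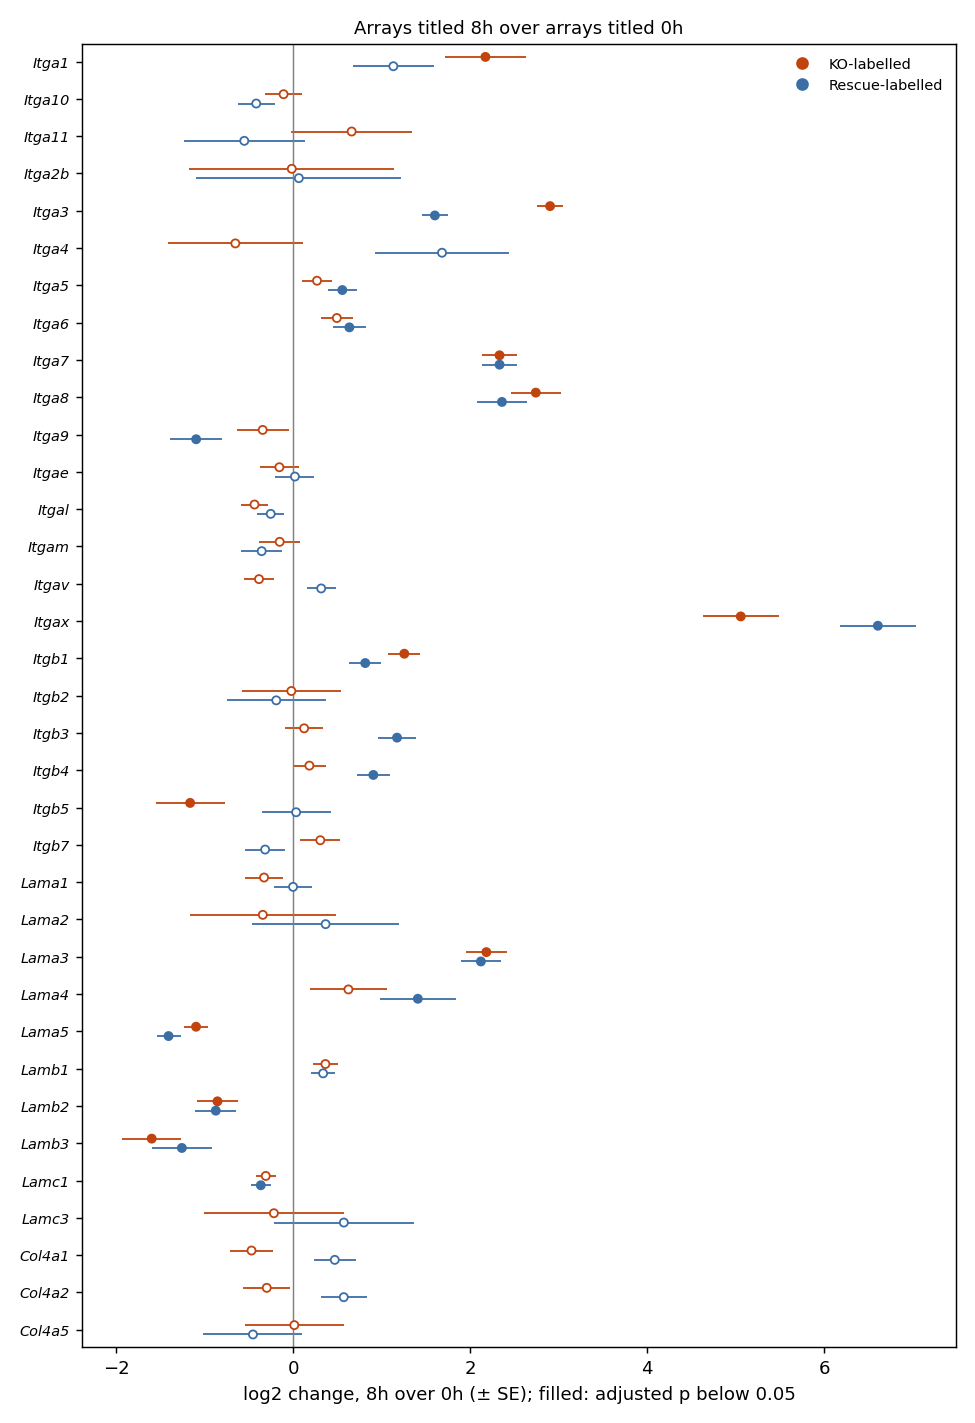
Log2 change at 8h over 0h for 35 of the 36 members in KO-labelled and Rescue-labelled cells; points are model estimates, bars 1 SE, and filled points have an adjusted p below 0.05. Itga3, Itga7, Itga8, Itgb1 and Lama3 lie right of 0 and Lama5, Lamb2 and Lamb3 left of 0 in both lines; the far right points of Itgax, and Itga1 in KO-labelled cells, rest on 0h arrays not well above background and are not measured folds.

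Itgax encodes the alpha subunit of a complement receptor, known as the dendritic cell marker CD11c. It was not well above background on any of the 6 arrays titled 0h, where it had -6.76, -6.16 and -6.65 on KO-labelled arrays, against -7.78, -7.78 and -7.37 on Rescue-labelled arrays. At 8h it was read on all arrays, with -2.31, -1.34 and -0.75 on KO-labelled arrays, against -1.36, -0.70 and -1.05 on Rescue-labelled arrays, and at 8h2h it had -2.92, -1.63 and -1.14 on KO-labelled arrays, against -1.88, -1.11 and -1.49 on Rescue-labelled arrays. Signal at 8h was at least 7.86-fold higher than at 0h in KO-labelled cells and at least 23.6-fold higher in Rescue-labelled cells. Itgax passed the filter only through groups titled 8h and 8h2h, so its call at 8h over 0h was not an independent test. The bounds set the 8h mean against a floor per 0h array, the higher of the gene's own signal and the dimmest signal of any probe clear of background.

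Ptprc, the leukocyte marker CD45, moved on the same arrays. It was at least 8.81-fold higher at 8h in KO-labelled cells and at least 35.8-fold higher in Rescue-labelled cells, again with no array titled 0h well above background. Ptprc likewise passed the filter only through the later titles. Of the 12 leukocyte and platelet markers, 7 did not pass the background filter in any group, among them Lyz2, Aif1, Gp1ba, Gp9, Pf4 and Tyrobp. Among the 5 tested, 2 were higher at 8h in KO-labelled and 1 in Rescue-labelled cells, with 0 lower. Over all genes 11.9% and 13% were higher, and 13.5% and 16.1% lower. The summed level of the 5 was 7.99 to 9.27 at 8h, against 7.00 to 10.4 at 0h, in KO-labelled cells, and 6.81 to 7.69 at 8h, against 5.45 to 6.77 at 0h, in Rescue-labelled cells. Itgam, which flanks Itgax on chromosome 7 and encodes a related subunit, changed by -0.15 ± 0.23 (adjusted p = 0.705) and -0.36 ± 0.23 (adjusted p = 0.291). Itgb2, the beta partner of Itgax, was not called in either line.

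Itga3 rose 7.48-fold in KO-labelled cells (2.90 ± 0.14, adjusted p = 6.20e-09) and 3.03-fold in Rescue-labelled cells (1.60 ± 0.14, adjusted p = 1.34e-06). The change was larger under the KO label by 1.30 ± 0.20 (adjusted p = 0.00383), and Itga3 was the 1 member called in that difference between the lines. There 1 of 36 members was higher and 0 lower, where 1.07% and 1.21% of all genes were called. On its second probe the difference between the changes was 0.48, and with the mean of the probes it was not called. The slide block added Itgb3 and Itgb4 to this call, which makes 3 members, and leaving out the high-background array added Itgb3.

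Itga7 rose 5.04-fold in KO-labelled and 5.04-fold in Rescue-labelled cells, by 2.33 ± 0.20 (adjusted p = 8.30e-07) and 2.33 ± 0.20 (adjusted p = 7.23e-07). Itga8 rose by 2.74 ± 0.28 (adjusted p = 5.67e-06) and 2.36 ± 0.28 (adjusted p = 2.14e-05), and Itgb1 by 1.26 ± 0.18 (adjusted p = 1.33e-04) and 0.81 ± 0.18 (adjusted p = 0.00351). For each of these genes no array titled 8h was as low as an array titled 0h of its line. Itga1 was at least 1.06-fold higher in KO-labelled cells (adjusted p = 0.00256), where no 0h array was well above background, and was not called in Rescue-labelled cells. In Rescue-labelled cells Itgb3 rose by 1.17 ± 0.21 (adjusted p = 7.58e-04), Itgb4 by 0.91 ± 0.19 (adjusted p = 0.00206), Itga6 by 0.64 ± 0.18 (adjusted p = 0.0175) and Itga5 by 0.56 ± 0.17 (adjusted p = 0.021), and none of these was called in KO-labelled cells. Itgb5 fell in KO-labelled cells (-1.16 ± 0.39, adjusted p = 0.0403), a call lost under 9 of 29 settings. Itga9 fell in Rescue-labelled cells (-1.10 ± 0.29, adjusted p = 0.0112), though its second probe gave -0.08. A call in 1 line alone does not show that the lines differ: the change in KO-labelled minus that in Rescue-labelled cells was -1.05 ± 0.30 (adjusted p = 0.0996) for Itgb3, -0.72 ± 0.26 (adjusted p = 0.238) for Itgb4 and 0.75 ± 0.41 (adjusted p = 0.531) for Itga9.

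**Figure D4:**
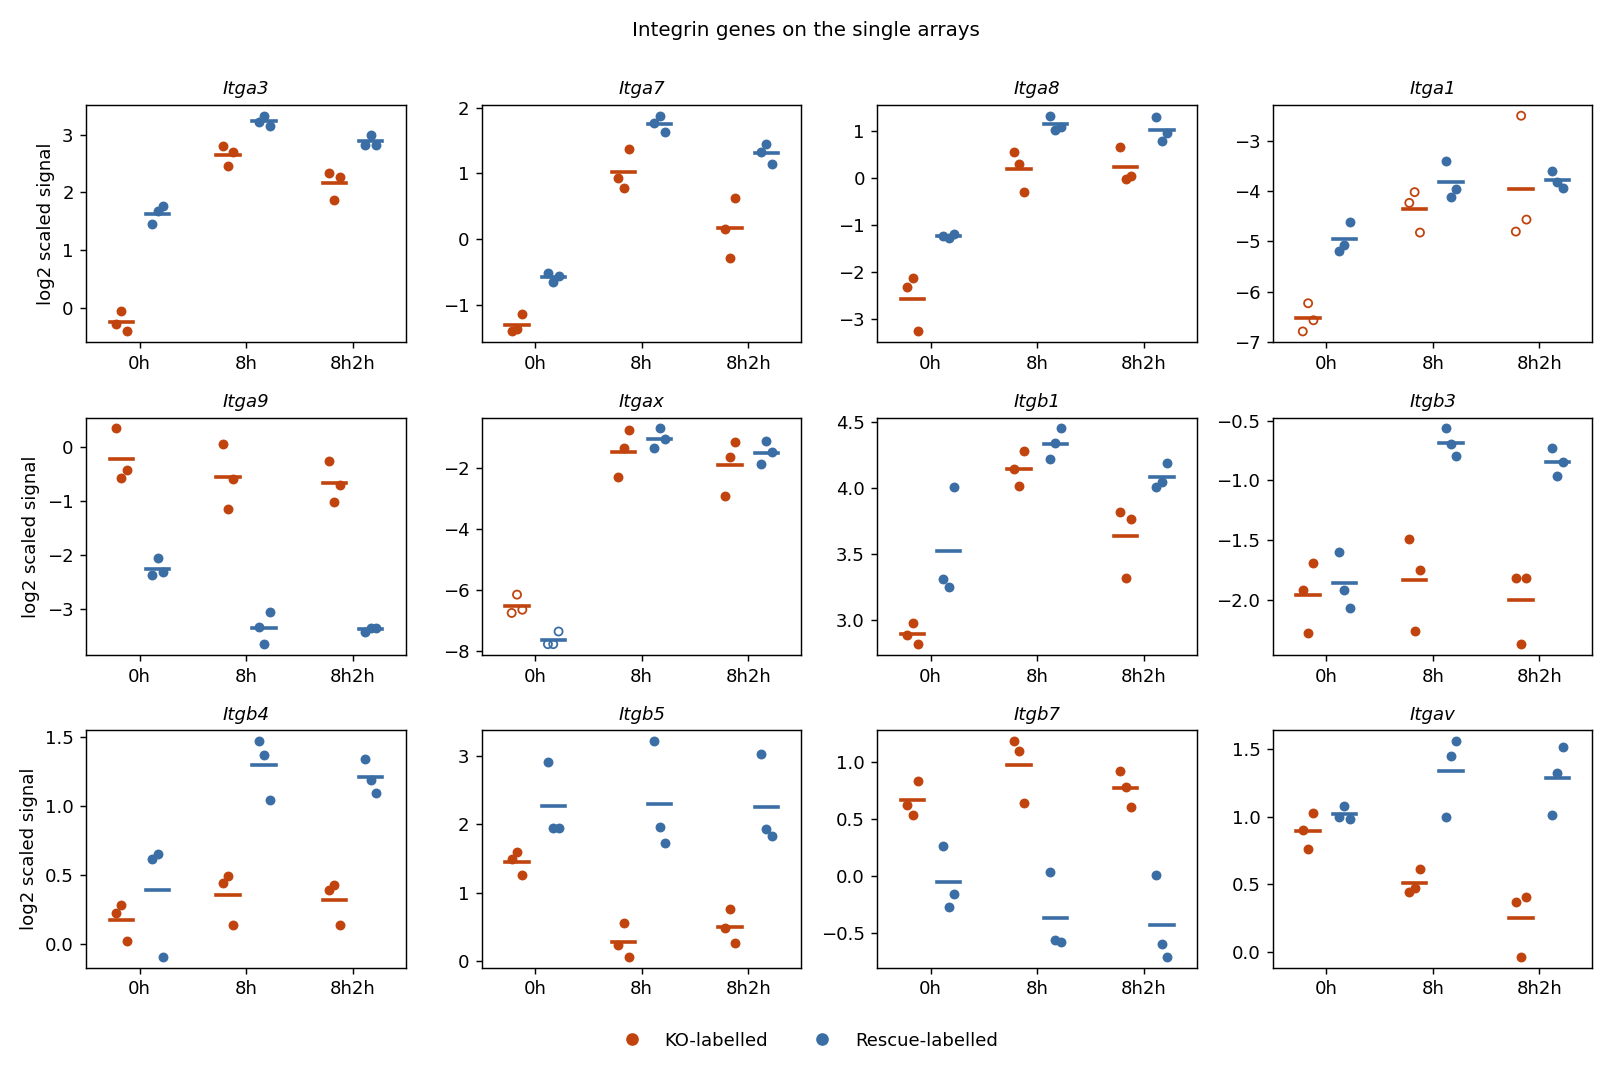
Log2 scaled signal (0 is the array's 75th percentile) of 12 integrin genes on every array, by title, with KO-labelled arrays left of Rescue-labelled arrays; bars are means of 3 arrays, and open points mark a group not well above background on all 3 arrays. Itga3, Itga7 and Itga8 are higher at 8h than at 0h in both lines. The lines do not overlap in Itgb3, Itgb5 and Itgav at 8h and 8h2h, nor in Itgb5 at 0h.

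Lama3 had -3.42, -2.69 and -3.51 on KO-labelled arrays, against -2.65, -2.57 and -3.01 on Rescue-labelled arrays at 0h. At 8h, Lama3 had -1.13, -0.93 and -1.01 on KO-labelled arrays, against -0.37, -0.75 and -0.75 on Rescue-labelled arrays. At 8h2h, Lama3 had -0.96, -1.32 and -0.69 on KO-labelled arrays, against -0.59, -1.20 and -0.99 on Rescue-labelled arrays. It rose 4.54-fold in KO-labelled and 4.35-fold in Rescue-labelled cells, by 2.18 ± 0.23 (adjusted p = 7.05e-06) and 2.12 ± 0.23 (adjusted p = 8.65e-06). Lamb3, another chain of the same epithelial trimer, fell in both lines, changing by -1.60 ± 0.34 (adjusted p = 0.00263) and -1.26 ± 0.34 (adjusted p = 0.0111).

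Lama5 fell 2.14-fold in KO-labelled and 2.65-fold in Rescue-labelled cells, changing by -1.10 ± 0.14 (adjusted p = 3.13e-05) and -1.41 ± 0.14 (adjusted p = 2.70e-06). Lamb2, the beta chain of laminins at synapses and in the kidney filter, fell, changing by -0.86 ± 0.23 (adjusted p = 0.0139) and -0.87 ± 0.23 (adjusted p = 0.0108). Lama4, a laminin alpha chain of blood vessels, had -3.66, -3.16 and -4.40 on KO-labelled arrays, against -3.48, -3.80 and -2.95 on Rescue-labelled arrays at 0h. At 8h, Lama4 had -2.67, -3.31 and -3.37 on KO-labelled arrays, against -1.63, -2.34 and -2.03 on Rescue-labelled arrays. At 8h2h, Lama4 had -2.53, -1.53 and -3.41 on KO-labelled arrays, against -1.65, -2.52 and -1.97 on Rescue-labelled arrays. It rose in Rescue-labelled cells by 1.41 ± 0.43 (adjusted p = 0.0242), and Lamc1, the common gamma chain, fell there, changing by -0.37 ± 0.11 (adjusted p = 0.0272), on 1 of its 2 probes, the other giving -0.08. Lama1 was not called, with -0.33 ± 0.21 (adjusted p = 0.303) and -0.00 ± 0.21 (adjusted p = 0.998). The collagen chains were not called either, Col4a1 changing by -0.47 ± 0.24 (adjusted p = 0.182) and 0.47 ± 0.24 (adjusted p = 0.167) and Col4a2 by -0.30 ± 0.26 (adjusted p = 0.474) and 0.57 ± 0.26 (adjusted p = 0.124).

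Among the partners, 2 of the 12 basement membrane genes were higher and 4 lower at 8h in each line (medians -0.37 and -0.37). Beside every list here, 11.9% of all genes were higher and 13.5% lower in KO-labelled cells, and 13% and 16.1% in Rescue-labelled cells. Agrn, agrin, fell, changing by -1.01 ± 0.11 (adjusted p = 1.07e-05) in KO-labelled and -1.43 ± 0.11 (adjusted p = 3.60e-07) in Rescue-labelled cells, and Nid2 rose by 1.02 ± 0.22 (adjusted p = 0.003) and 0.97 ± 0.22 (adjusted p = 0.00398). Of 13 matrix proteases and inhibitors tested, 6 were higher and 2 lower in KO-labelled cells and 7 higher and 1 lower in Rescue-labelled cells (medians 0.33 and 0.98). Plaur, the urokinase receptor, rose by 2.85 ± 0.22 (adjusted p = 3.20e-07) and 2.67 ± 0.22 (adjusted p = 5.27e-07). Of 20 adhesion adaptors tested, 6 rose and 4 fell in KO-labelled cells and 5 rose and 3 fell in Rescue-labelled cells (medians -0.15 and 0.03), with Tns1, tensin, at 2.47 ± 0.18 (adjusted p = 2.70e-07) and 3.09 ± 0.18 (adjusted p = 2.78e-08). Of 12 collagen IV synthesis genes, 2 rose and 4 fell in KO-labelled and 5 rose and 1 fell in Rescue-labelled cells (medians -0.04 and 0.25), Pxdn rising by 1.76 ± 0.19 (adjusted p = 6.92e-06) and 1.82 ± 0.19 (adjusted p = 4.56e-06). Of 13 other integrin ligands tested, 2 rose and 3 fell in KO-labelled and 1 rose and 4 fell in Rescue-labelled cells (medians -0.13 and -0.14). Spp1, osteopontin, fell, changing by -1.56 ± 0.17 (adjusted p = 1.21e-05) and -1.37 ± 0.17 (adjusted p = 3.75e-05).

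Trophoblast markers moved in this comparison too: of 10 tested, 5 rose and 2 fell in KO-labelled cells and 4 rose and 0 fell in Rescue-labelled cells. Beside each marker list, 11.9% of all genes rose and 13.5% fell in KO-labelled cells, and 13% and 16.1% in Rescue-labelled cells. Of 12 endoderm markers, 4 rose and 0 fell in KO-labelled cells, and 2 rose and 2 fell in Rescue-labelled cells. Of 10 fibroblast markers tested, 2 rose and 1 fell in KO-labelled and 3 rose and 1 fell in Rescue-labelled cells. Their summed level was 15.4 to 22.0 at 8h, against 2.48 to 3.08 at 0h, in KO-labelled cells, and 7.20 to 8.40 at 8h, against 2.54 to 2.70 at 0h, in Rescue-labelled cells. Thy1 rose 8.59-fold and Twist1 6.24-fold in KO-labelled cells, the 2 genes called higher there, and 3.79-fold and 3.55-fold in Rescue-labelled cells (adjusted p = 4.88e-08, 2.56e-05, 3.78e-06 and 5.81e-04). Fbln2, a matrix protein, fell, changing by -1.53 ± 0.22 (adjusted p = 1.36e-04) and -1.13 ± 0.22 (adjusted p = 0.00139), and the median change of the list was -0.35 in KO-labelled and -0.0046 in Rescue-labelled cells. Col3a1 and Fap, which fibroblasts express, were not well above background on any KO-labelled array titled 0h or 8h or any Rescue-labelled array titled 0h. Both were read at 8h on at least 1 Rescue-labelled array, where Fap was at least 1.69-fold higher than at 0h (adjusted p = 0.0266 in limma). Fap, counted among the markers that rose in Rescue-labelled cells, passed the filter only through the later titles, so its call was not an independent test. Of 5 endothelial markers tested, 1 rose and 2 fell in KO-labelled and 3 rose and 2 fell in Rescue-labelled cells. Of the 8 embryonic stem cell markers, 1 rose and 3 fell in KO-labelled cells and 2 rose and 4 fell in Rescue-labelled cells (medians -0.32 and -0.38). Nanog fell, changing by -3.59 ± 0.34 (adjusted p = 2.81e-06) and -4.73 ± 0.34 (adjusted p = 1.78e-07). The part of these cell types in the member changes was not tested.

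The arrays titled 8h2h over those titled 8h ask which members follow when Mek is inhibited for 2 h after 4OHT. Itga3 and Itga7, both laminin-binding subunits that rose at 8h, fell in KO-labelled cells, and no other member was called. In KO-labelled cells 0 members were higher and 2 lower, where 4.14% and 3.2% of all genes were called. In Rescue-labelled cells 0 were higher and 0 lower, where 1.43% and 1.45% of all genes were called. At an unadjusted p below 0.05 limma gave 2 higher (Lama5 and Lamc3) and 4 lower members (Itga3, Itga7, Itgb1 and Lamb1) in KO-labelled cells, beside 12.3% and 8.43% of all genes. In Rescue-labelled cells it gave 0 higher and 3 lower (Itga3, Itga5 and Itga7), beside 6.22% and 4.88% of all genes. Lamc3 was not well above background on any KO-labelled array titled 8h. Between the lines' changes limma called 0 of 36 members in either direction, where 0.0499% of all genes were called higher and 0.00624% lower. At an unadjusted p below 0.05 it gave 0 members, beside 2.02% of all genes higher and 0.743% lower. The median member change was 0.00 in KO-labelled and -0.05 in Rescue-labelled cells, beside 0.01 and 0.00 over all genes.

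Itga7 fell 1.82-fold in KO-labelled cells (-0.87 ± 0.20, adjusted p = 0.0153), and its change in Rescue-labelled cells was -0.45 ± 0.20 (adjusted p = 0.386). Itga3 changed by -0.50 ± 0.14 (adjusted p = 0.0493) in KO-labelled and -0.35 ± 0.14 (adjusted p = 0.333) in Rescue-labelled cells, and its call was lost under 19 of 29 settings, among them the slide block and leaving out the high-background array, which each left Itga7 alone. Both genes at 8h2h were still above 0h on every array. Itgax changed by -0.43 ± 0.43 (adjusted p = 0.593) and -0.45 ± 0.43 (adjusted p = 0.98), Itgb1 by -0.51 ± 0.18 (adjusted p = 0.112) and -0.26 ± 0.18 (adjusted p = 0.829), Itga8 by 0.04 ± 0.28 (adjusted p = 0.942) and -0.13 ± 0.28 (adjusted p = 1), and Lama3 by 0.03 ± 0.23 (adjusted p = 0.947) and -0.31 ± 0.23 (adjusted p = 0.866). None of these was called.

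The fast ERK outputs moved much further on the same arrays, 4 of 5 being lower and 0 higher in each line. Beside this list and those below, 4.14% of all genes were higher and 3.2% lower in KO-labelled cells. In Rescue-labelled cells the shares were 1.43% and 1.45%. Dusp6 fell, changing by -4.41 ± 0.23 (adjusted p = 6.33e-08) in KO-labelled and -4.25 ± 0.23 (adjusted p = 1.42e-07) in Rescue-labelled cells, Spry2 by -2.45 ± 0.16 (adjusted p = 3.30e-07) and -2.83 ± 0.16 (adjusted p = 1.42e-07), Spry4 by -5.24 ± 0.38 (adjusted p = 1.04e-06) and -4.98 ± 0.38 (adjusted p = 2.28e-06), and Egr1 by -4.87 ± 0.15 (adjusted p = 3.31e-10) and -4.02 ± 0.15 (adjusted p = 2.76e-09). Etv4 was not called, with -0.33 ± 0.29 (adjusted p = 0.547) and -0.12 ± 0.29 (adjusted p = 1). Of 13 matrix proteases and inhibitors tested, 2 rose and 2 fell in KO-labelled cells, and 0 rose and 2 fell in Rescue-labelled cells (medians 0.08 and -0.46). Plaur fell in both lines, changing by -1.65 ± 0.22 (adjusted p = 2.85e-04) and -1.49 ± 0.22 (adjusted p = 0.00118), and so did Timp1, a metalloprotease inhibitor, changing by -1.02 ± 0.16 (adjusted p = 0.00149) and -0.74 ± 0.16 (adjusted p = 0.024). In KO-labelled cells Timp2, another such inhibitor, rose by 0.93 ± 0.27 (adjusted p = 0.0498), and Plat, tissue plasminogen activator, was at least 2.53-fold higher (adjusted p = 0.0389). In KO-labelled cells 0 of 12 collagen IV synthesis genes rose and 2 fell (median -0.10), and 0 of 13 other integrin ligands rose and 1 fell (median 0.13). In Rescue-labelled cells 0 of either list were called, and 1 and 1 had an unadjusted p below 0.05 in limma. In limma 0 of 12 basement membrane partners and 0 of 20 adhesion adaptors were called in either line, with 1 and 4 at an unadjusted p below 0.05 in KO-labelled cells and 0 and 0 in Rescue-labelled cells. Ccn1, an integrin ligand and early response gene, fell in KO-labelled cells, changing by -1.02 ± 0.19 (adjusted p = 0.0044).

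**Figure D5:**
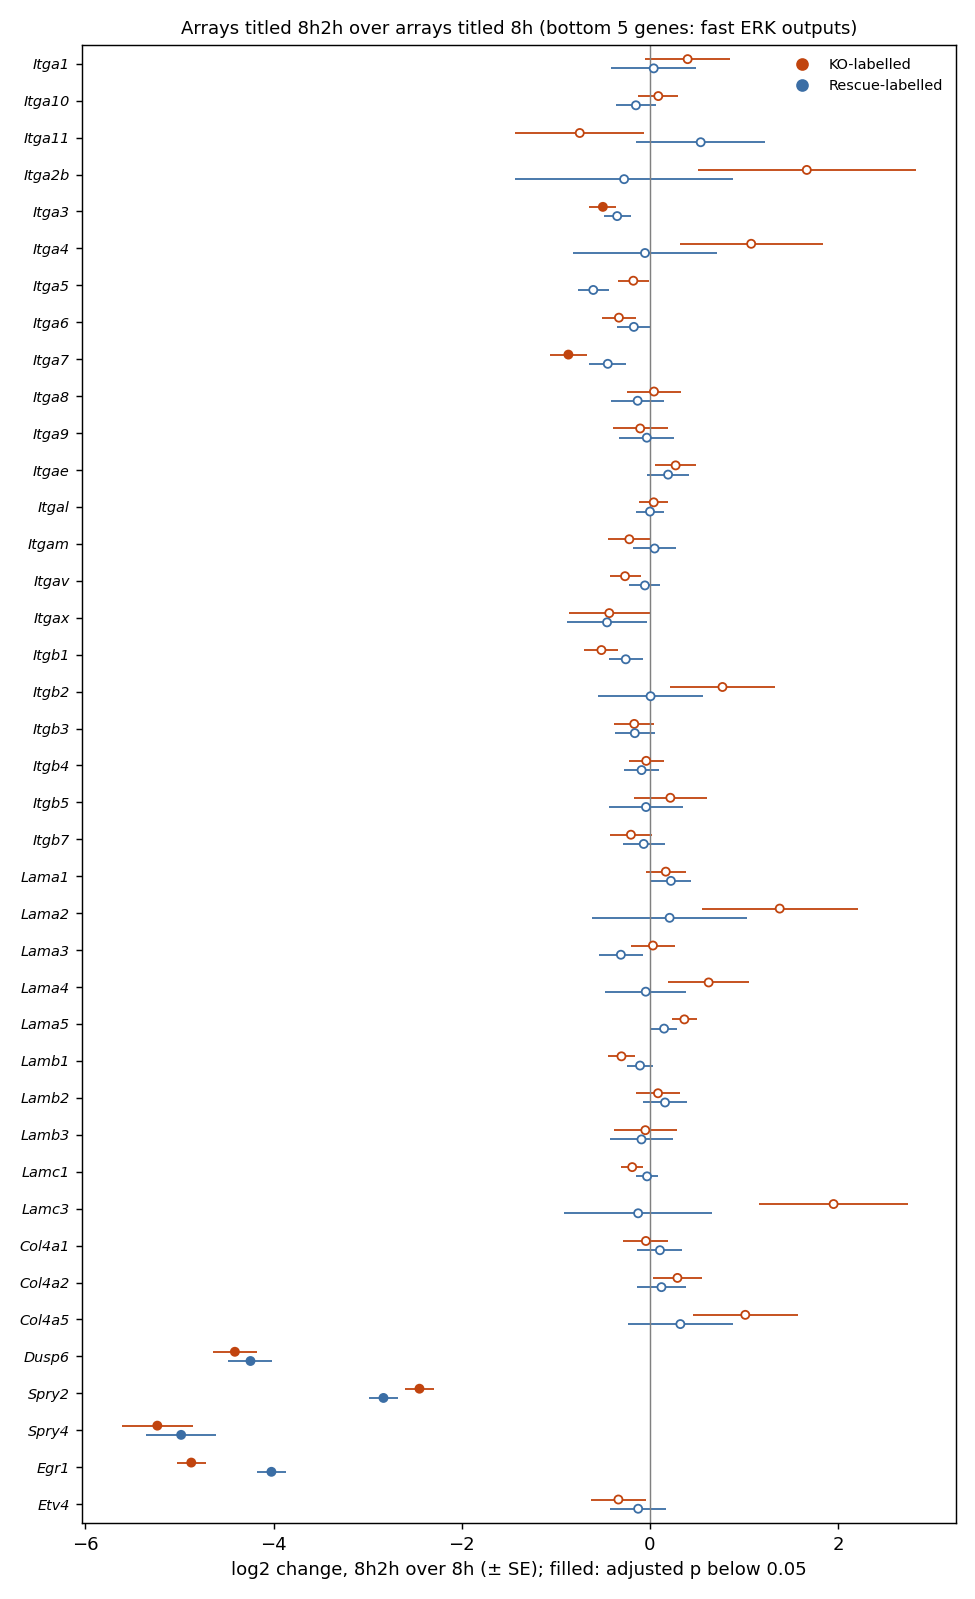
Log2 change at 8h2h over 8h for 35 of the 36 members and, in the bottom 5 rows, fast ERK outputs, in KO-labelled and Rescue-labelled cells; points are model estimates, bars 1 SE, and filled points have an adjusted p below 0.05. Among the members the filled points are Itga3 and Itga7 in KO-labelled cells, while Dusp6, Spry2, Spry4 and Egr1 lie far left of 0 in both lines.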

How the data were processed

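Total RNA (100 ng per sample, per the labels) was labelled and measured on 18 one-colour Agilent arrays, 1 per sample. Per the file headers, the authors extracted spots with Agilent Feature Extraction 12.0.1.1, and the deposited processed signal is an intensity after background subtraction, not scaled across arrays. The authors' deposited table of values held the same intensity. Deposited median spot and background intensities served 1 alternative, and flags deposited per spot, for outliers and for signal clear of background (other values, not intensities), served as filters. No spot was saturated. The sources used here do not state how the authors scaled arrays.

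From log2 of this signal the 75th percentile of the same array was subtracted. Of 56605 probes, 32994 matched 22911 symbols by RefSeq accession. A probe was kept if some group had all 3 of its arrays well above background for it, 107 kept named probes were left out for outlier spots, and the brightest kept probe of a gene was used, giving 16022 genes (5698 with several kept probes, 13 of them members).

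Groups followed the titles. A model of 6 group means was fitted to the 18 arrays with limma 3.58.1 (R 4.3.3), with 9 contrasts, two-sided moderated tests and Benjamini-Hochberg adjustment over all genes; "called" means an adjusted p below 0.05. Values after ± are SEs from this model, with 3 arrays per group, and the number of arrays limits the precision. Slide letters were not taken as pairing in this model, and a block for slide was an alternative. Of 45 same-slide pairs of arrays, 28 had deviations correlated above 0.1 (median 0.141, lowest -0.06, highest 0.733). Arrays of 1 slide thus tended to move together, which the main model leaves out. For a gene unread on all arrays of a group, the fold is given as a lower bound, or left out where that bound is under 1. The model code was tested on simulated data.

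Alternatives were quantile normalization, no scaling, normexp background correction (offset 50, on median spot signals), other filters, the mean of probes, a block for slide, a fit of the compared arrays alone, another variance prior, the authors' values, a minimum change of 2-fold, and each array left out in turn. Members, lists and alternatives were chosen with earlier results of these data known. Of the members that passed, 1 is not reported here but counts in the totals; every other is named, with all arrays shown for those called with a log2 change of 1 or more in size, and each list gives up to 4 called genes of largest change per comparison, of which the text names fewer. Fast ERK outputs are named whatever their values.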

Additional observations from a re-analysis of the deposited data

Results flagged for a closer look

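The response of Itga3, the laminin-binding integrin subunit, differed between the lines by the test of the difference itself. Its change at 8h over 0h in KO-labelled cells minus that in Rescue-labelled cells was 1.3 on the log2 scale (SE 0.20, adjusted p = 0.00383 in limma). On all 3 KO-labelled and all 3 Rescue-labelled arrays titled 8h the gene was above every array of its line titled 0h. The second Itga3 probe gave 0.48 for the same difference, and the call was lost with the mean of both probes and with no scaling between arrays. The cause was not tested.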

How the results depend on the processing

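Of 76 called member changes, 28 kept their call and direction under every one of up to 29 settings tried, among them Col4a2 and Itga9 between the lines at all 3 titles, and Itga3, Itga7, Itga8, Itgb1 in KO-labelled cells, and Lama3 at 8h over 0h. Itgax at 8h over 0h also counts among them, but it passed the filter only through groups titled 8h and 8h2h. The setting with the authors' values held the same intensities as the main input, so it could not change a call. Members called, in the order KO over Rescue at 0h, 8h and 8h2h (main counts 14, 17 and 14), 8h over 0h in KO-labelled and Rescue-labelled cells (11 and 17), 8h2h over 8h in both lines (2 and 0), and the difference between the lines in the 8h change (1), moved by over 1.5 times as follows. With no scaling between arrays they were 4, 7 and 7 between the lines, 0 at 8h2h over 8h in KO-labelled cells and 0 in the difference. With a 2-fold minimum they were 7, 8 and 9 between the lines, 11 at 8h over 0h in Rescue-labelled cells and 0 at 8h2h over 8h in KO-labelled cells. The mean of probes gave 0 and 0 for 8h2h over 8h in KO-labelled cells and for the difference, no filter on dim probes gave 1 for that comparison in KO-labelled cells, and only the arrays compared gave 0 in KO-labelled and 1 in Rescue-labelled cells. With the slide as a replicate block, 8h2h over 8h in KO-labelled cells gave 1 and the difference 3, and 75 of the 76 changes kept their call.

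Leaving out 1 array gave ranges of 8 to 17, 11 to 22 and 11 to 21 between the lines, 10 to 15 and 13 to 20 at 8h over 0h, 0 to 4 and 0 to 1 at 8h2h over 8h, 1 to 2 for the difference in the 8h change and 0 for that in the 8h2h change. The lowest count at 0h came with the KO-labelled 0h array of replicate a left out, and the lowest at 8h with the Rescue-labelled 8h array of replicate b left out. With the KO-labelled 8h2h array of replicate b left out the difference gave 2, and at 8h2h over 8h in KO-labelled cells leaving out replicate b of the KO-labelled 8h arrays gave 4 and leaving out replicate c gave 0. Quantile normalization turned Itgae at 8h2h to -0.143 (adjusted p = 0.884) and Itgal to -0.343 (adjusted p = 0.636). The cause of these shifts was not tested. Shares of all genes under each setting are not given, so a shifted count is not a result about the members. Signal over background limits Col4a5, Itga1, Itgax and the other dim members, whose 0h or KO-labelled values are bounds.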
